A study of Mus musculus with 12 samples.

Results

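Among the subunits of the BAF chromatin remodelling complex, 10 are encoded by mouse genes that come in a progenitor form and a neuronal form, or as a pair of scaffold paralogs, and all were found by symbol among the 51912 genes listed in each library. They are Actl6a and Actl6b, Phf10, Dpf1, Dpf2 and Dpf3, Ss18 and Ss18l1, and Smarcc1 and Smarcc2. RNA had been measured in 12 libraries of micro-dissected cerebral cortex at embryonic day 15.5. Of these, 6 came from embryos carrying a conditional mutation of Arid1a under Emx1-Cre, a recombinase expressed in dorsal telencephalic progenitors and inherited by their descendants, and 6 came from embryos labelled control. Of the controls the labels say no more, neither their alleles nor whether they carried Cre. Interneurons, vessels, blood and microglia arise outside the Emx1 lineage, so a dissected mutant cortex also holds cells in which this Cre does not act. Of the mutants, 2 were from litter 1 and 4 from litter 2, and 5 were female. Of the controls, 4 were from litter 1 and 2 from litter 2, and 2 were female. Each library stands for a separate sample, and all carry the same batch label.

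BAF complexes use the ATPase Smarca4 or Smarca2 to move nucleosomes, and their other subunits direct the complex to its targets. As neural progenitors leave the cell cycle, the actin-related subunit Actl6a gives way to Actl6b, the PHD-finger subunits Phf10 and Dpf2 give way to Dpf1 and Dpf3, and Ss18 gives way to Ss18l1. In mouse neurons the exchange of Actl6a for Actl6b involves miR-9-3p (also written miR-9*) and miR-124, which act on the Actl6a 3′ UTR, while the repressor Rest holds the genes of these microRNAs down in cells that are not neurons. Smarcc1 and Smarcc2 encode scaffold proteins on which the complex is built. In whole tissue, fewer cells of a type and less RNA per cell cannot be told apart.

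The seed of miR-9-3p and its matches in the members are shown because miR-9-3p is a regulator of the switch whose mature sequence could be set against the annotated UTRs. No other microRNA was searched. The mature RNA, from RefSeq (GRCm38), is encoded at chromosomes 3, 7 and 13, and seed bases 2 to 8 are in capitals:
mmu-miR-9-3p: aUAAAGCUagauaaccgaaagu
The 7 letters AGCTTTA, the reverse complement of that seed, were searched on the transcript strand in the longest annotated 3′ UTR of each member (GENCODE M21, GRCm38). One match lay in Actl6a and 2 lay in Smarcc1, shown here on the plus strand with the match in capitals:
Actl6a, chr3:32726620-32726649: cccgtcacctcaacgtctgtAGCTTTAgta
Smarcc1, chr9:110238593-110238622: cgatagatagcaaagagcacAGCTTTAcaa
Smarcc1, chr9:110239421-110239450: tatttttatgtgtattttaaAGCTTTAtgt
The Actl6a match began at base 38 of a UTR of 371 bases, and the Smarcc1 matches at bases 831 and 1659 of 2396. Among 15654 UTRs of at least 371 bases, 441 (2.82%) held the letters in their first 371 bases. The UTRs of the other 8 members held no match, over lengths from 90 bases in Phf10 to 3087 in Ss18. A match of letters is a description and not a measured site.

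Gene counts per library had a median of 997033 in mutants (643197 to 3525121) and 2347836.5 in controls (1476478 to 2815042). Levels are CPM, a gene's count as a share of the library's counts over the 10678 genes that passed a filter on low counts, scaled by TMM. Fold changes and adjusted p-values come from edgeR's quasi-likelihood test with terms for litter, sex and genotype, adjusted by Benjamini-Hochberg over the same genes. The counts are per gene and so hold no reading of the deleted exons. Arid1a itself averaged 447 ± 51.0 CPM in the 6 mutants and 510 ± 42.3 CPM in the 6 controls (mean ± SD), with a log2 fold change of -0.30 (SE 0.0958, edgeR adjusted p = 0.277). Markers of cortical excitatory neurons were present in both groups. Tbr1 averaged 217 ± 53.9 CPM in the 6 mutants and 216 ± 70.5 CPM in the 6 controls (mean ± SD). Neurod2 averaged 197 ± 26.9 CPM in mutants and 188 ± 60.1 CPM in controls. Neurod6 averaged 122 ± 20.5 CPM in mutants and 148 ± 45.4 CPM in controls. Their genotype fold changes were -0.17, -0.09 and -0.49 on the log2 scale (edgeR adjusted p from 0.611 for Neurod6 to 0.97 for Neurod2). Lhx2, of the same list of cortical tissue, averaged 120 ± 45.8 CPM in mutants and 178 ± 56.5 CPM in controls. Its fold change was -0.75 (SE 0.392, edgeR adjusted p = 0.668). The cortical tissue list had 7 of 7 measured genes on the negative side, median -0.49. Over all tested genes 49.9% of genotype fold changes were positive, and no list was tested as a set. The interneuron list had 13 of 13 measured markers on the positive side, median 0.48, and the list of ganglionic eminence and striatum had 5 of 5, median 1.11. No gene of these 2 lists passed the adjusted threshold. A score of the second list is set beside Dpf3 and the ratios below, and the part of the interneuron list was not tested. Sox2 and Tubb3 were listed at 0 in all 12 libraries. Each lies within the span of another annotated gene, and why they were listed at 0 was not tested. Without them the progenitor and neuron lists hold 13 measured genes each.

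All 10 members passed the filter on low counts, and 0 of 10 were called at adjusted p under 0.05 in mutants against controls, where 0.215% of all tested genes were. At an unadjusted p under 0.05 the count was 2 of 10 (Dpf3 and Phf10), against 8.78% of all genes. DESeq2 called 1 of 10, Dpf3, against 0.89% of genes, and limma-voom called 0 of 10, against 0.225%. The members' fold changes were divided evenly, 5 positive and 5 negative, with a median of -0.0030 on the log2 scale, and over all genes 49.9% were positive with a median of -0.00088. In no member were the CPM values of the 6 mutants wholly apart from those of the 6 controls, as they were in 1.26% of all genes. The neuronal forms stood on both sides of 0, and so did the progenitor forms.

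**Figure D1:**
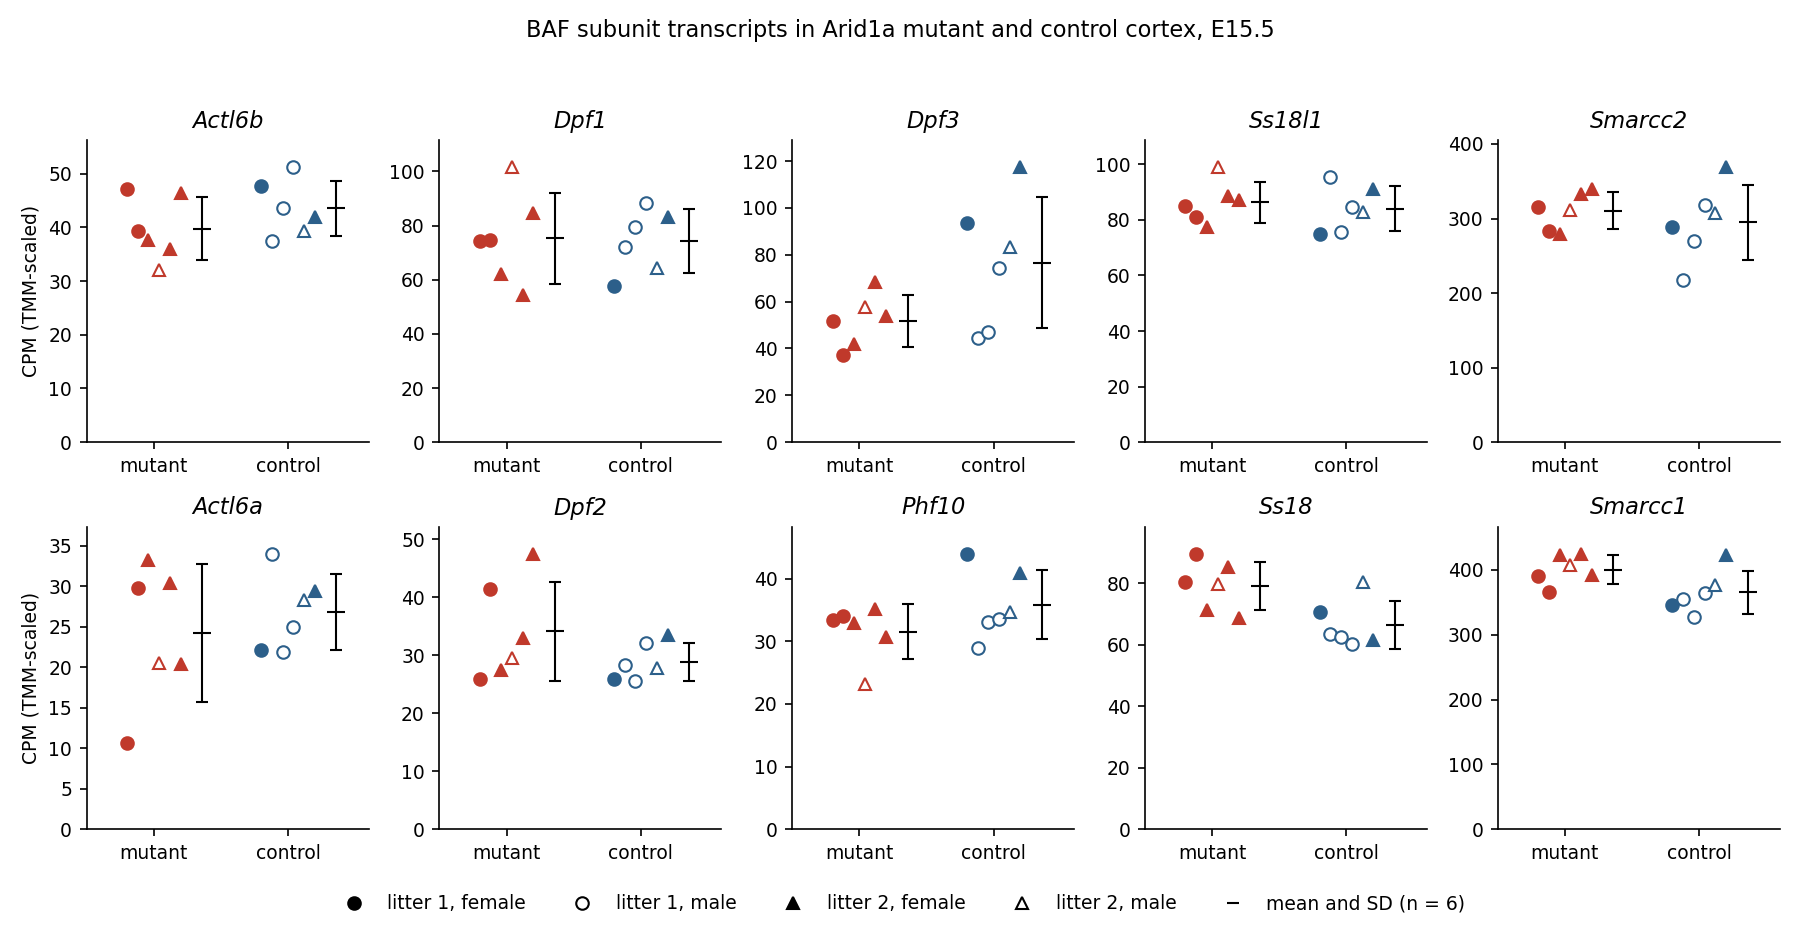
CPM of the 10 subunit genes in each library, mutants left and controls right, with neuronal forms and Smarcc2 in the top row and progenitor forms and Smarcc1 in the bottom row. Shapes mark litter, filling marks sex and bars give the mean and SD (n = 6); the 2 groups overlap in every panel, and Dpf3 has the widest control spread relative to its mean, 44.5 to 117 CPM.

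Actl6b, the neuron-specific actin-related subunit, was at 32.1 CPM at the lowest, 38.5 at the median and 47.1 at the highest in mutants, and at 37.4, 42.8 and 51.2 CPM in controls. The ranges shared most of their length, with 2 mutants below all controls and 2 controls above all mutants. Its genotype fold change was -0.16 on the log2 scale (SE 0.148, 95% interval -0.47 to 0.15, edgeR adjusted p = 0.847). Actl6a, the form of cycling progenitors, was at 10.6, 25.2 and 33.2 CPM (lowest, median, highest) in mutants and at 21.8, 26.7 and 33.9 CPM in controls. The lowest value was that of mutant 1, the shallowest library, and rests on 7 counts. The fold change of Actl6a was -0.13 (SE 0.239, 95% interval -0.63 to 0.37, edgeR adjusted p = 0.957), and it took the opposite sign, 0.0067 and 0.0084, without mutant 1 and without mutant 4. Of the 3886 exon bases of Actl6a, 452 (11.6%) overlap Mrpl47 on the other strand, and the sources used here do not give the strand setting of the counting.

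The PHD-finger subunits held both members with an unadjusted p under 0.05. Dpf3, a neuronal form that reads histone marks through its PHD fingers, was at 37.2 CPM at the lowest, 52.8 at the median and 68.5 at the highest in mutants, and at 44.5, 78.8 and 117 CPM in controls. All 6 mutants were below the control mean, 2 mutants were below all controls and 4 controls were above all mutants, while controls 2 and 3, at 44.5 and 47.1 CPM, lay inside the mutant range. Means with their SD were 51.8 ± 11.2 CPM in the 6 mutants and 76.7 ± 27.9 CPM in the 6 controls. With litter and sex in the model the log2 fold change was -0.96 (SE 0.203, 95% interval -1.39 to -0.52, unadjusted p = 0.000332 from edgeR), the 48th smallest p of 10678. Its adjusted p of 0.0740 missed the threshold, so Dpf3 was not called.

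The size of the Dpf3 difference depended on the terms of the model, and the 2 control females held the highest values. The 5 mutant females had 51.7, 37.2, 41.8, 68.5 and 53.9 CPM, and the control females had 93.6 and 117 CPM. The mutant male had 57.8 CPM, and the 4 control males had 44.5, 47.1, 74.3 and 83.3 CPM. Every mutant female was thus below both control females, while the mutant male lay between the control males. Whether the genotype difference itself differs between the sexes was not tested. Among females alone, with a litter term, the log2 fold change was -1.10 (edgeR adjusted p = 0.0150). Without the litter and sex terms it was -0.57 (edgeR adjusted p = 0.364).

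Both litters gave the same sign for Dpf3. The litter 1 means were 44.5 CPM in mutants, against 64.9 CPM in controls, and the litter 2 means were 55.5 CPM in mutants, against 100.3 CPM in controls. Fits with a sex term gave -1.10 in litter 1 alone (edgeR adjusted p = 0.389) and -0.93 in litter 2 alone (edgeR adjusted p = 0.102). In litter 1 no mutant was male, so control 1 is the 1 control that informs that value. The interaction of litter and genotype was -0.10 (SE 0.422, edgeR adjusted p = 0.989). The same 10 genes gave 0 calls for that term, as did all genes (0.0% called), and 0 of 10 members had an unadjusted p under 0.05, against 7.27% of genes.

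**Figure D2:**
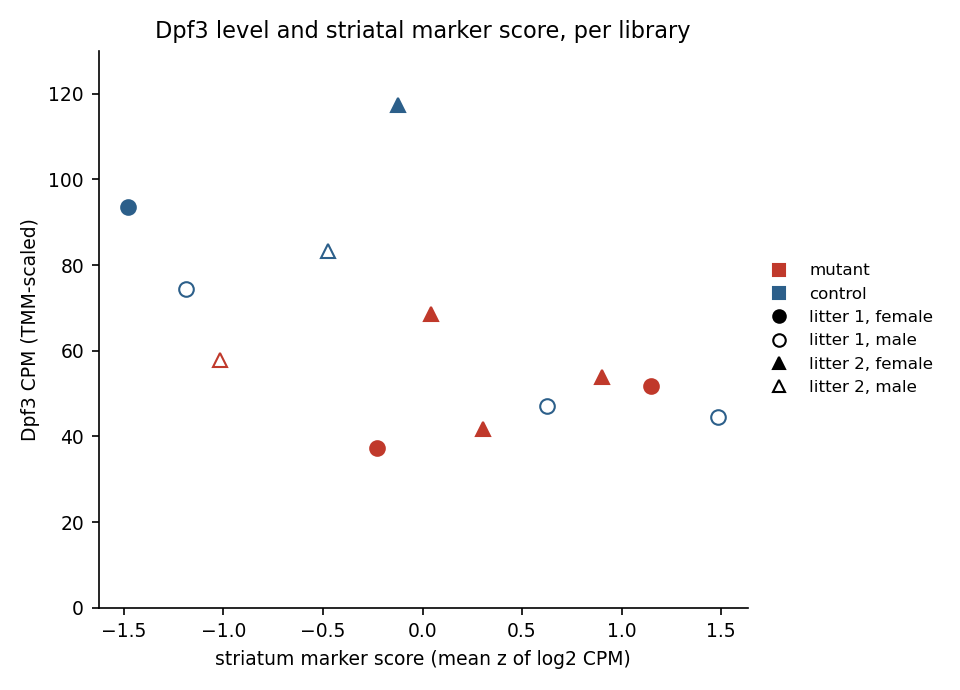
Dpf3 CPM of each library against its striatum marker score, the mean z-score of log2 CPM over the measured markers of ganglionic eminence and striatum. Controls 2 and 3 have the highest scores among controls, 1.49 and 0.63, and the lowest Dpf3 among controls, 44.5 and 47.1 CPM, while mutant 4 at a score of -1.02 has 57.8 CPM.

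Markers of the ganglionic eminence and striatum, which a cortical dissection can carry along, varied widely inside both genotypes. Their summed level ran from 519 to 1825 CPM in mutants and from 394 to 1985 CPM in controls. All 12 genes of the list were above 0 in at least 1 library, and 5 passed the filter. The striatum score of controls 1 and 4 was -1.48 and -1.19, with 93.6 and 74.3 CPM of Dpf3. Among mutants the lowest score was -1.02 in mutant 4, with 57.8 CPM of Dpf3, and the highest 1.15 in mutant 1, with 51.7 CPM. With the score as a covariate the Dpf3 fold change was -0.82 (edgeR adjusted p = 0.0350). Without the 2 libraries of highest score in each genotype it was -1.01 (edgeR adjusted p = 0.0513). The controls left out there, 2 and 3, were also the controls of lowest Dpf3, so that fit cannot show what the score contributes. The neuron minus progenitor score of controls 2 and 3 was also the highest of all libraries, 2.21 and 1.29, and with that score as a covariate the value was -0.90 (edgeR adjusted p = 0.117).

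Dpf3 had the highest dispersion index of the 10, 12.9. The index is the variance of counts over that expected from counting alone within genotype. Smarcc2 followed at 9.84, Dpf1 at 4.79 and Smarcc1 at 4.20, and the other 6 ran from 1.05 in Actl6b to 2.29 in Actl6a. The index grows with a gene's count, so it does not rank the members by evenness. The SD as a share of the mean was highest for Dpf3 in controls, at 36.4%. In mutants it was 21.7% for Dpf3, below Actl6a (35.2%), Dpf2 (25.1%) and Dpf1 (22.1%). Dpf3 also spans 273972 bases on chromosome 12, the longest span of the members, where the others span 14293 to 122471 bases. Removal of each library's trend of level over gene span gave a fold change of -0.94 (edgeR adjusted p = 0.109).

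Phf10, a PHD-finger subunit of progenitors that belongs to the PBAF form of the complex, was at 23.1, 33.2 and 35.1 CPM (lowest, median, highest) in mutants and at 29.0, 34.2 and 43.9 CPM in controls. All 6 mutants were below the control mean of 35.9 CPM, but only mutant 4 was below all controls. The log2 fold change was -0.38 (SE 0.139, 95% interval -0.67 to -0.09, edgeR adjusted p = 0.366). Like that of Dpf3 it depended on the terms of the model, and was -0.18 without the sex term (edgeR adjusted p = 0.779) and -0.17 without the litter and sex terms (edgeR adjusted p = 0.680). Phf10 shares 470 exon bases (9.57%) with 1600012H06Rik on the opposite strand. Dpf1, a neuronal form, had medians of 74.5 CPM in mutants (54.4 to 101.5) and 75.8 CPM in controls (57.7 to 88.5), a fold change of 0.10 (SE 0.164, edgeR adjusted p = 0.940). The sign of Dpf1 turned in 6 of 31 other fits. Dpf2, the widely expressed form, had medians of 31.3 CPM in mutants (25.8 to 47.4) and 28.0 CPM in controls (25.6 to 33.6), a fold change of 0.15 (SE 0.195, edgeR adjusted p = 0.912). The 2 highest Dpf2 values were in mutants 2 and 6, at 41.5 and 47.4 CPM. Its fold change was 0.042 without mutant 2, 0.042 without control 1 and 0.29 without control 6, and 0.40 in litter 1 alone, and it was positive in all 31 other fits.

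Ss18, the progenitor form of the next pair, was at 68.8, 80.1 and 89.4 CPM (lowest, median, highest) in mutants and at 60.1, 63.1 and 80.4 CPM in controls. All 6 mutants were above the control mean of 66.5 CPM and 3 were above all controls, and controls 1 and 5, at 70.6 and 80.4 CPM, lay inside the mutant range. The log2 fold change was 0.25 (SE 0.130, 95% interval -0.02 to 0.52, edgeR adjusted p = 0.618), and it was positive in all 31 other fits, 0.16 to 0.34. Ss18l1, the neuronal form and a calcium-responsive transactivator, had medians of 86.2 CPM in mutants (77.5 to 98.9) and 83.7 CPM in controls (74.8 to 95.4). Its fold change was 0.05 (95% interval -0.18 to 0.29, edgeR adjusted p = 1.00). Of the pair, the progenitor form thus had the larger difference, on the positive side, and neither passed the test.

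The scaffold genes were the most abundant members. Smarcc1 had medians of 400.3 CPM in mutants (366 to 424) and 359 CPM in controls (327 to 423), and all 6 mutants were above the control mean of 365 CPM. In the model with litter and sex its fold change was 0.05 (SE 0.0858, 95% interval -0.13 to 0.23, edgeR adjusted p = 0.940). Smarcc2 had medians of 314 CPM in mutants (279 to 339) and 298 CPM in controls (218 to 368), a fold change of -0.06 (SE 0.113, 95% interval -0.30 to 0.18, edgeR adjusted p = 0.961). Over all libraries Smarcc1 had 8603 counts and Smarcc2 had 6770, and Smarcc2 changed sign in 6 of 31 other fits.

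**Figure D3:**
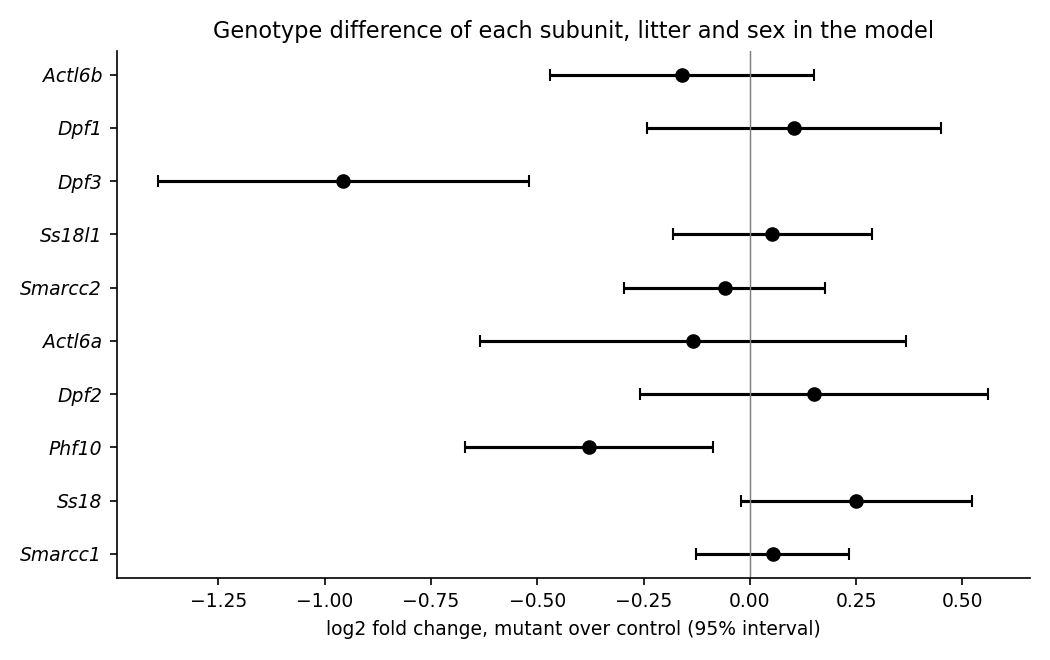
Log2 fold change of each subunit gene, mutant over control, with litter and sex in the model, and its 95% interval before any adjustment for the number of genes. The intervals of Dpf3 (-1.39 to -0.52) and Phf10 (-0.67 to -0.09) lie below 0 and the other 8 include 0; without the litter and sex terms the values were -0.57 for Dpf3 and -0.17 for Phf10.

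The ratio of neuronal to progenitor counts was computed inside each library, so that library scaling drops out. It was compared between genotypes by a two-sided exact permutation test over all assignments of 6 and 6 libraries, adjusted over 4 ratios. Unlike the fits of single genes, that test has no term for sex, and 5 mutants but 2 controls were female. None of the 4 ratios passed that test. Actl6b counts exceeded those of Actl6a in 12 of 12 libraries. The ratio was 1.13 at the lowest, 1.44 at the median and 4.43 at the highest in mutants, and 1.10, 1.71 and 2.15 in controls. The mutant maximum rests on 31 counts of Actl6b and 7 of Actl6a in mutant 1, where Actl6b held 81.6% of the pair with an exact 95% binomial interval of 65.7 to 92.3%, for counting error only. Mutants minus controls was 0.07 on the log2 scale (95% interval -0.62 to 0.85, exact permutation p = 0.829, adjusted p = 0.829). Without mutant 1 the difference was -0.18. The litter differences were 0.42 in litter 1 and 0.07 in litter 2, with an exact p of 0.471 when labels were permuted within litters.

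The ratio of Dpf1 and Dpf3 to Dpf2 and Phf10 was also above 1 in 12 of 12 libraries. It was 1.48, 1.79 and 3.02 (lowest, median, highest) in mutants and 2.04, 2.26 and 2.69 in controls. The controls lay close together, 4 mutants were below all of them, and mutant 4 was above all of them. The difference of mutants minus controls was -0.25 on the log2 scale (95% interval -0.56 to 0.10, exact permutation p = 0.141, adjusted p = 0.281). It was -0.32 in litter 1 and -0.32 in litter 2, and permutation within litters gave an exact p of 0.0978. One library decided the side of the threshold, since without mutant 4 the difference was -0.38 (exact permutation p = 0.00649). Mutant 4 was the only male mutant, the second shallowest library and the lowest in Phf10, with 18 counts. Among females alone the difference was -0.45 (exact permutation p = 0.0476, the smallest that 5 against 2 allows), and without the 2 shallowest libraries, mutants 1 and 4, it was -0.45 (exact permutation p = 0.00476, the smallest that 4 against 6 allows).

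The parts of that ratio are given as a description with no test. Dpf3 over Dpf2 and Phf10 had medians of 0.782 in mutants and 1.23 in controls, a log2 difference of -0.52. Dpf1 over the same 2 genes had medians of 1.06 in mutants and 1.19 in controls, a difference of -0.0074. Dpf3 over Dpf1, the 2 neuronal forms, had medians of 0.656 in mutants and 1.07 in controls, a difference of -0.51. Of the 2 neuronal forms, Dpf3 thus carried the lower mutant ratio.

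**Figure D4:**
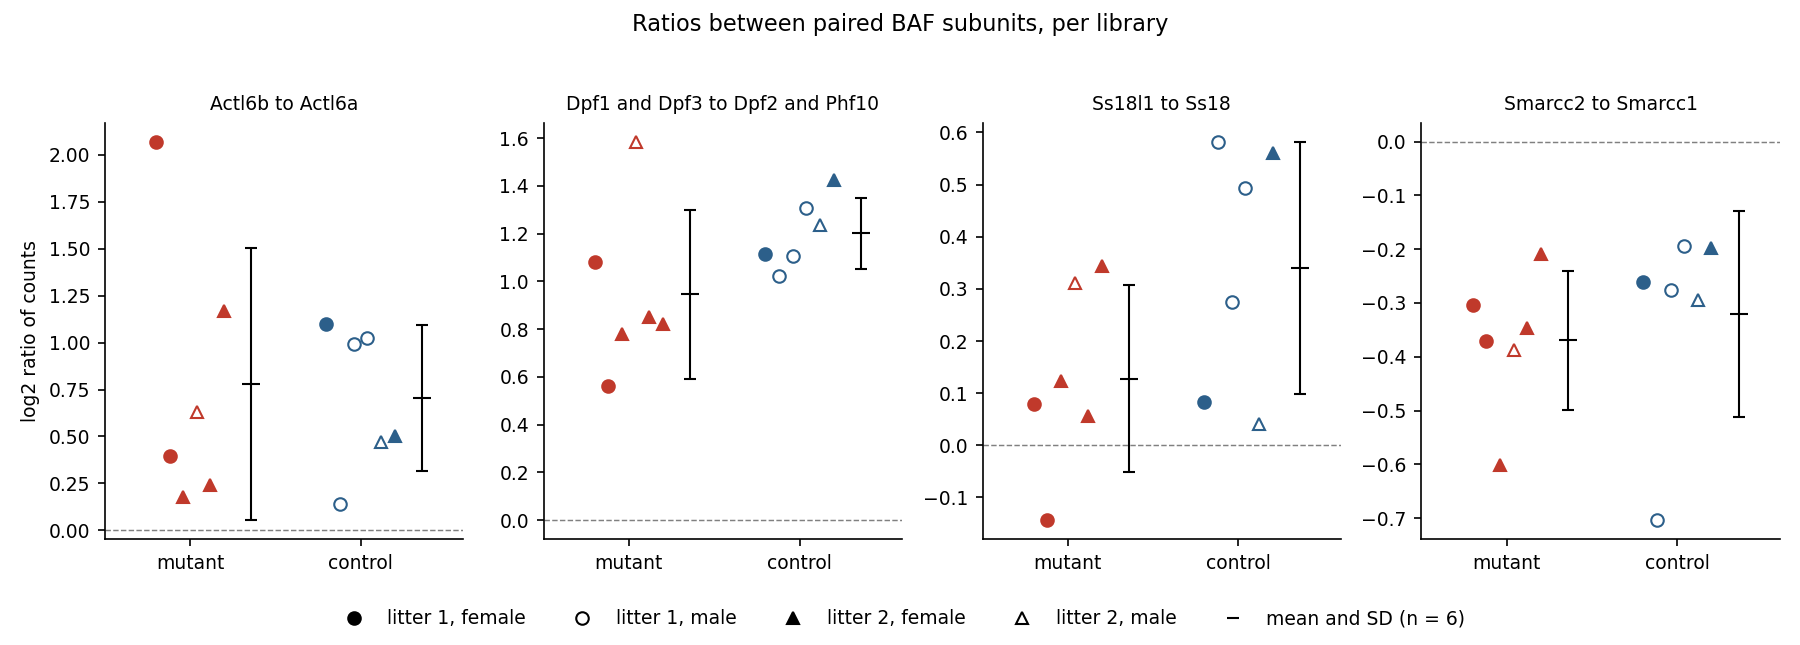
Log2 ratio of counts of each subunit pair in each library, mutants left and controls right, with litter, sex, mean and SD (n = 6) marked and equal counts at the dashed line. In the Dpf panel 4 mutants lie below all controls and mutant 4 above all of them.

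Ss18l1 and Ss18 counts were nearer to equal, and Ss18l1 exceeded Ss18 in 11 of 12 libraries, the exception being mutant 2. The ratio was 0.905, 1.07 and 1.27 (lowest, median, highest) in mutants and 1.03, 1.31 and 1.50 in controls, with 5 mutants below the control mean. The difference of mutants minus controls was -0.21 (95% interval -0.47 to 0.05, exact permutation p = 0.132, adjusted p = 0.281), -0.39 in litter 1 and -0.09 in litter 2, and within litters the exact p was 0.120. It was negative in all 21 other settings, -0.39 to -0.09. Smarcc2 counts were below Smarcc1 counts in every library, with ratios of 0.659, 0.780 and 0.865 in mutants and 0.614, 0.830 and 0.874 in controls. That difference was -0.05 (95% interval -0.23 to 0.16, exact permutation p = 0.569, adjusted p = 0.759), 0.02 in litter 1 and -0.14 in litter 2. Without control 2 it was -0.13 (exact permutation p = 0.0455). These pairs differ in length, so a ratio above 1 is of counts and does not rank transcripts.

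The 4 ratios were set against 3 measures of each library, 12 relations in all, and none passed after adjustment. The smallest Pearson p was that of Ss18l1 to Ss18 with the neuron minus progenitor score (r = 0.48, permutation p = 0.111, adjusted p = 0.586, Spearman rho = 0.39, permutation p = 0.210, n = 12 libraries). Without the 2 libraries farthest from the median score, controls 2 and 3, r was 0.24. Within groups of 6, r was 0.57 in mutants, 0.33 in controls, 0.78 in litter 1 and 0.19 in litter 2. The ratio of Actl6b to Actl6a had r = -0.05 with that score (permutation p = 0.879, rho = 0.16, permutation p = 0.621). The Dpf ratio had r = -0.41 with the striatum score (permutation p = 0.184, rho = -0.51, permutation p = 0.0938), -0.49 without controls 1 and 2.

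Between genes, levels can be ordered only per length. In controls, CPM per kilobase of exon was highest for Smarcc2 (53.2 ± 9.08) and Smarcc1 (46.6 ± 4.17). Ss18l1 (19.4 ± 1.88), Dpf3 (18.2 ± 6.61), Dpf1 (13.8 ± 2.19) and Actl6b (10.2 ± 1.21) came next, all 4 being neuronal forms. The progenitor forms Phf10 (7.30 ± 1.12), Ss18 (7.06 ± 0.821), Actl6a (6.89 ± 1.20) and Dpf2 (4.44 ± 0.504) were lowest (SD, n = 6 controls). Among neighbours in this order, the control ranges were apart for Smarcc1 over Ss18l1 and for Actl6a over Dpf2, and the other neighbours overlapped. The order rests on the length chosen. Per kilobase of gene span Dpf1 (5.19 ± 0.823) came second after Smarcc2 (9.45 ± 1.61) and Dpf3 (0.280 ± 0.102) came last. Across 10232 protein-coding genes log2 CPM sloped with both lengths, 0.49 per doubling of exon length and 0.37 per doubling of span.

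Litter and sex gave no calls among the members. Litter 2 against litter 1 gave 0 calls of 10, where 1.31% of genes were called, and 2 members at an unadjusted p under 0.05, against 15.4% of genes. These were Dpf3, at 0.47 (SE 0.185, edgeR adjusted p = 0.236), and Smarcc1, at 0.16 (SE 0.0753, edgeR adjusted p = 0.312). Males against females gave 0 calls of 10, where 0.00937% of genes were called, and 2 members at an unadjusted p under 0.05, against 6.95% of genes. These were Phf10, at -0.41 (SE 0.134, edgeR adjusted p = 0.654), and Dpf3, at -0.46 (SE 0.196, edgeR adjusted p = 0.711). DESeq2 called 264 genes by litter and 2 by sex.

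The genes whose log2 CPM followed Actl6b most closely over the 12 libraries, out of 7063 with a mean of at least 20 CPM, were Fndc4 (r = 0.87), Fstl1 (r = 0.83) and Myo6 (r = 0.80). Among those nearest to Actl6a were Gmeb2 (r = 0.93) and Zfp207 (r = 0.87). These are the highest of many correlations over few libraries that share depth differences, and are given as a description.

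The rest of the BAF, PBAF and ncBAF complexes was read the same way. All 21 other subunit genes were measured, 0 were called, 10 were positive and 11 negative, and the median log2 fold change was -0.0030, beside -0.00088 for all genes. An unadjusted p under 0.05 was reached by 2 of 21, against 8.78% of genes. These were Arid1a itself and Bcl11a, a zinc-finger factor that copurifies with BAF, at 702 ± 72.5 CPM in the 6 mutants and 1027 ± 155 CPM in the 6 controls (mean ± SD), a fold change of -0.53 (SE 0.130, edgeR adjusted p = 0.108). All 6 mutants were below all 6 controls for Bcl11a, a separation in either direction that 1.26% of genes had. The third largest difference was that of Bcl7b (0.21, SE 0.219, edgeR adjusted p = 0.866), and the smallest were those of the actin subunit Actb (-0.0030), Bicral of ncBAF (0.0067) and Arid2 of PBAF (0.01). In the litter term Bcl11b was called, higher in litter 2 by 0.68 (SE 0.142, edgeR adjusted p = 0.0280).

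All 12 regulators of the switch were measured and 0 were called by genotype, with 5 positive, 7 negative and a median of -0.04. Rcor2, a Rest corepressor, had the largest difference, -0.37 (SE 0.152, edgeR adjusted p = 0.460), and was the 1 gene of the list with an unadjusted p under 0.05. Mir124-2hg, a host transcript of miR-124, came next at 0.32 (SE 0.209, edgeR adjusted p = 0.739), then C130071C03Rik, in which the hairpin Mir9-2 lies, at -0.18 (SE 0.0961, edgeR adjusted p = 0.641). The splicing repressor Ptbp1 (-0.01), the corepressor Sin3a (0.03) and Rcor1 (0.04) had the smallest differences. Mir9-3hg, host of a hairpin that yields the miR-9-3p printed above, averaged 372 ± 61.3 CPM in the 6 mutants and 329 ± 78.7 CPM in the 6 controls (mean ± SD), a genotype fold change of -0.06 (SE 0.108, edgeR adjusted p = 0.960). It was the 1 regulator called by litter, higher in litter 2 by 0.49 (SE 0.0934, edgeR adjusted p = 0.0139). Actl6a, which holds a match to that microRNA's seed, had a litter fold change of 0.26 (SE 0.210, edgeR adjusted p = 0.599). Host transcripts are not a measure of the mature microRNA.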

How the data were processed

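Per the labels' protocols, total RNA from fresh cortices was depleted of ribosomal RNA and made into ClickSeq libraries, in which azido-nucleotides end random-primed cDNA and a click adaptor carries a random tag. Processing by the authors used build mm10, and the submitters' processing notes name STAR 2.5.2a, HTSeq 0.6.1p1, UMI-tools 0.5.3, cutadapt 1.13, edgeR 3.20.9 and bcl2fastq 2.17. The sources used here give neither feature type, counting mode and strand setting nor annotation release. The deposited values are raw counts per Ensembl gene, 1 library per file, with no normalization by the authors. The 5 closing entries that name no gene (20.7 to 31.6% of a file) were left out. GENCODE M21 gave symbols and coordinates: 47648 identifiers matched with version, 3985 without, 279 not at all.

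The members, lists and tests were chosen with earlier results of these data known. Counts were filtered by filterByExpr (minimum count 10, by genotype) and TMM-scaled, and edgeR 4.0.16 under R 4.3.3 fitted a model with litter, sex and genotype, robust = TRUE and 8 residual degrees of freedom. Called means a Benjamini-Hochberg adjusted p under 0.05. The SE is the fold change divided by the square root of F. For Ss18l1 by genotype, Phf10 in the interaction and Actl6b by sex, edgeR raised the p to that of a Poisson test, so it is larger than the SE implies. Log2 ratios added 0.5 to each sum of counts, and their intervals invert the exact test. Scores are mean z-scores of log2 CPM with a prior count of 2. DESeq2 1.42.0, limma-voom (limma 3.58.1), other scalings, filters, covariates, subsets, thinning and leaving out each library were alternatives. The fit was tested on simulated data with 200 changed genes. The numbers of mutants and controls follow accession order and pair nothing. The p-values set differences or relations against the spread between these samples, except those that edgeR raised to that of a Poisson test.

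All members are named. Of the other subunits and the regulators, Arid1a, genes called by genotype or litter and the 3 largest and 3 smallest genotype differences are named. For Actl6b and Actl6a the 3 genes of highest correlation are named. Of the marker lists, Tbr1, Neurod2, Lhx2 and Neurod6 of cortical tissue are named, and Foxp2, Ebf1 and Rarb of ganglionic eminence and striatum. Sox2 and Tubb3, which were listed at 0, are named as well. Some results that these rules would give are not reported here. Python 3.11.15, pandas 2.3.3, scipy 1.17.1 and matplotlib 3.10.9 were used.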

Additional observations from a re-analysis of the deposited data

Results flagged for a closer look

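Of the 10 members and 4 ratios, the CPM of 1 member and 1 ratio were flagged, each in 1 library. A gap test at the 95% level set that library apart from the other 5 libraries of its group. Chance passes that test in about 1 group in 20, and each member and ratio has a group per genotype. Flags this few were not told apart from chance. Phf10 was at 23.12 CPM in mutant 4, from 18 counts, with a gap to the nearest mutant of 0.63 of the group's range. The limit of the test is 0.625. The log2 ratio of Smarcc2 to Smarcc1 was -0.7039 in control 2, with a gap of 0.805 of the range, and control 2 also had the highest striatum and neuron minus progenitor scores of the 12 libraries, 1.49 and 2.21.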

How the results depend on the processing

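Depth limits the low members, since counts were as few as 7 (Actl6a) and 17 (Dpf2) in a library. Of 31 alternatives per member, none called a member other than Dpf3. Dpf3 was called in 6, at adjusted p = 0.0188 with DESeq2 (-0.92), 0.0150 in females alone (-1.10), 2.24e-09 with no filter (-0.98), 0.0350 with the striatum score (-0.82), 0.0465 without control 2 (-0.97) and 0.0435 without control 4 (-0.95), and its value ran from -1.20 to -0.57. Genes called by genotype, 23 in the reported fit, numbered 95 with DESeq2, 44 in females, 5 in litter 1, 64 in litter 2, 261 with no filter, 39 with the striatum score, 77 without sex, 141 without sex and litter, 42 without the 2 libraries of highest striatum score per genotype (added after seeing the data), 0 without the 2 shallowest libraries and 6 to 55 with 1 library left out. Genes called by litter, 140, numbered 264 with DESeq2, 593 with no filter and 27 to 212 with 1 library left out. Genes called by sex, 1, numbered 2, 76 and 1 to 17 in the same settings, and those of the interaction, 0, numbered 6, 75 and 0 to 1. Signs turned for Actl6a without the highest striatum scores (0.081), without the shallowest 2 (0.14) and with 1 library left out (-0.25 to 0.0084). They turned for Dpf1 in females (-0.047), in litter 2 (-0.0012), without both covariates (-0.022), without sex (-0.020), without the shallowest 2 (-0.054) and with 1 library left out (-0.028 to 0.49), and for Ss18l1 without the shallowest 2 (-0.011). They turned for Smarcc2 in litter 1 (0.041), thinned to equal depth (0.0014), without both covariates (0.070), without litter (0.00063), without sex (0.0079) and with 1 library left out (-0.096 to 0.045). With 1 library left out, Dpf2 ran from 0.042 to 0.29, Smarcc1 from 0.030 to 0.12, Ss18l1 from 0.012 to 0.19 (the highest of each without control 6) and Phf10 from -0.45 to -0.34, and Phf10 was -0.28 when thinned to equal depth. The log2 ratio of Actl6b to Actl6a turned to -0.41 without the highest striatum scores, to -0.21 without the shallowest 2 and ranged from -0.18 to 0.19 with 1 library left out. The Dpf ratio passed an unadjusted 0.05 in 3 of 22 other settings, in females (-0.45), without the shallowest 2 (-0.45) and without mutant 4 (-0.38). All of these leave out mutant 4, so they are not separate results. The Dpf ratio ranged from -0.38 to -0.18 with 1 library left out. The ratio of Smarcc2 to Smarcc1 was 0.021 in litter 1, -0.19 without the highest striatum scores (exact permutation p = 0.0286, the smallest that 4 against 4 allows) and -0.13 to -0.0024 with 1 library left out. The causes were not tested. No paired analysis was possible because the replicate numbers follow accession order and name no shared animal.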
